A study of Saccharomyces cerevisiae with 13 samples.

Results

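Condensin is the ring-shaped complex that compacts and untangles chromosomes before they are pulled apart in mitosis. Its 5 subunits were followed here at the transcript level through the budding yeast cell cycle, chosen by name as SMC2 (YFR031C), SMC4 (YLR086W), BRN1 (YBL097W), YCS4 (YLR272C) and YCG1 (YDR325W). They are 5 of the 6140 genes with a value, each had 1 row in the table, and all were measured on every array. The cells were yeast of strain W303 with background SSD1-V, arrested in G1 by alpha factor, a mating pheromone, and let go into YEPD, a rich medium, with samples from 0 to 120 min at steps of 10 min. Each of the 13 time points is a group of 1 array, with time point cDNA in Cy5 and cDNA of an asynchronous W303a culture grown in YEPD in Cy3. No source used here gives the SSD1 allele of the Cy3 culture. No time point was replicated and no dyes were swapped, so errors below come from the scatter of arrays in 1 culture. That scatter is about a fitted curve or, for mean levels, about a flat mean, and the number of arrays limits the precision.

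Smc2 and Smc4 are long coiled-coil ATPases that pair at a hinge. Brn1, the kleisin, bridges their ATPase heads and closes the ring. Ycs4 and Ycg1 are curved HEAT-repeat proteins that sit on Brn1 and contact DNA. Budding yeast has a single condensin, which is present on chromosomes through the cell cycle, acts most strongly in mitosis and is needed to segregate the repeated ribosomal DNA. Ycg1 has been described as the subunit whose abundance limits the complex in this yeast.

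The table holds a log ratio for each open reading frame, read here as log2 of the time point over the asynchronous culture, although no source used here states the log base or the direction. The direction is called likely from the labelled dyes and from genes that pheromone induces, which at 0 min stood at 4.53 for FIG1, 3.40 for FUS1, 3.08 for FUS2, 3.78 for PRM1 and 3.78 for AGA1. All pairs of arrays correlated positively across genes, from r = 0.22 to r = 0.85. A ratio of opposite sign would turn each difference below and shift each peak by 30 min, and sizes would be larger on the log2 scale if the logarithms were natural. Each gene is read against its own level in the asynchronous culture, so differences and timing can be compared between genes, while amounts of mRNA cannot. In bulk RNA a higher share of cells at 1 stage and more mRNA per cell at that stage cannot be told apart. A ratio to yeast of the same kind cannot show whether markers of MATa cells are present.

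YCG1, 1 of the HEAT-repeat subunits, had the largest oscillation of the complex. At steps of 10 min from 0 to 60 min its log2 ratio was -0.34, -0.35, 0.03, 0.42, 0.53, 0.27 and -0.19. In the next cycle, from 70 to 120 min, it was -0.51, -0.09, 0.18, 0.35, 0.22 and -0.03. The highest array of each cycle was thus at the same position, 40 and 100 min, and the lowest values stood at 0, 10 and 70 min. The swing, the peak-to-trough difference of a fitted curve of 60 min period, was 0.84 ± 0.10 (SE, 13 arrays), or 1.79-fold, and the fitted peak lay at 38.7 ± 1.1 min after release, modulo 60 (limma's moderated F test, adjusted p = 2.8e-04 over 6137 genes). This swing was larger than that of 95.4% of genes tested.

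BRN1, the kleisin, followed a similar course and was above its level in the asynchronous culture after 0 min. Its log2 ratio from 0 to 60 min was 0, 0.04, 0.32, 0.47, 0.67, 0.60 and 0.13. From 70 to 120 min it was 0.15, 0.16, 0.29, 0.41, 0.52 and 0.25. The 40 and 50 min arrays were high in the first cycle and the 100 and 110 min arrays in the second. The swing of BRN1 was 0.50 ± 0.10 (SE, 13 arrays), or 1.42-fold, and its peak lay at 40.3 ± 1.8 min (limma's moderated F test, adjusted p = 0.0095). Without the 40 min array BRN1 missed the threshold (adjusted p = 0.054).

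YCS4, the other HEAT-repeat subunit, peaked earlier. Its log2 ratio from 0 to 60 min was -0.55, -0.22, 0.38, 0.28, 0.21, -0.06 and -0.16. From 70 to 120 min the values were -0.10, 0.04, 0.12, 0.09, 0.05 and -0.06. The 0 min array was the lowest and the 20 min array the highest, and the later cycle moved between -0.10 and 0.12. The fitted swing was 0.49 ± 0.11 (SE, 13 arrays), or 1.40-fold, and the peak lay at 30.3 ± 2.5 min (limma's moderated F test, adjusted p = 0.017). Without the 0 min array the swing was 0.38. YCS4 stayed called with any single array left out, but only just without the 30 min array (same test, adjusted p = 0.0497).

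The ATPase genes had the smallest fitted swings of the complex over the 13 arrays, though neither was called different from YCS4 in the tests below. SMC2 stood at -0.23, -0.03, 0.20, 0.13, 0.25, -0.18 and -0.33 from 0 to 60 min, and at -0.05, 0.01, 0.06, 0.05, 0.12 and -0.14 from 70 to 120 min. Its arrays from 20 to 40 min were above 0 and those at 50 and 60 min below it, for a swing of 0.35 ± 0.09 (SE, 13 arrays), or 1.27-fold, and a fitted peak at 30.9 ± 2.8 min (limma's moderated F test, adjusted p = 0.031). SMC4 stood at -0.03, 0.28, 0.46, 0.28, 0.24, 0.19 and 0.03 from 0 to 60 min, and at 0.16, 0.25, 0.42, 0.29, 0.28 and 0.12 from 70 to 120 min. Its 20 and 90 min arrays were the highest of each cycle and the 0 min array was the lowest of all. The swing was 0.29 ± 0.07 (SE, 13 arrays), or 1.22-fold, with a peak at 27.9 ± 2.8 min (limma's moderated F test, adjusted p = 0.030). Either call was lost without single arrays: SMC2 missed the threshold without the 0, 20, 30, 40, 60 or 120 min array (adjusted p up to 0.070), and SMC4 without the 0, 20, 40, 60, 90 or 120 min array (adjusted p up to 0.080).

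**Figure D1:**
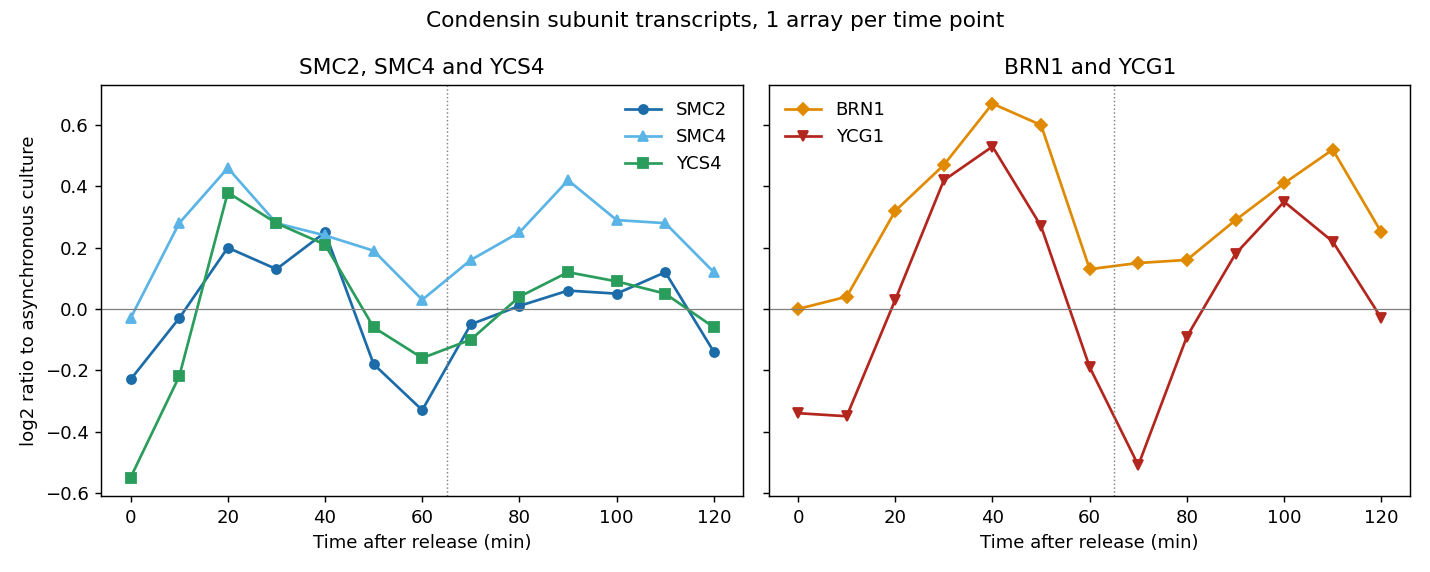
Log2 ratio of each condensin transcript to the asynchronous culture (vertical axis) against minutes after release (horizontal axis), 1 point per array, with a dotted line between the cycles. SMC2, SMC4 and YCS4 reach their highest value of the first cycle at 20 or 40 min, while BRN1 and YCG1 are highest at 40 min, at 0.67 and 0.53.

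All 5 subunits were called periodic at 60 min, beside 30.1% of all genes tested. Their median swing was 0.49, against 0.21 over all genes and 0.40 over the periodic ones, each over all 13 arrays. That median is the swing of YCS4, and without the 0 min array it fell to 0.38. No median of periodic genes without that array is given here, and the medians were not tested. The median of the subunits is therefore not shown to lie above that of periodic genes. The count depends on how the noise is modelled. With an estimated correlation of 0.44 between neighbouring arrays 3 of the 5 were called, beside 14.0% of genes: YCG1 (adjusted p = 0.0010), YCS4 (adjusted p = 0.039) and BRN1 (adjusted p = 0.043). SMC2 (adjusted p = 0.12) and SMC4 (adjusted p = 0.11) then missed the threshold. Leaving out the 40 min array left 2 subunits called, YCS4 and YCG1, and the number called lay between 2 and 5 over the 13 arrays left out in turn.

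Arrays 60 min apart give another view of the error, since they sample like positions of the cycle. From the differences of the 6 such pairs between 10 and 120 min, the standard deviation of a single array was 0.11 for YCG1, 0.11 for BRN1, 0.13 for YCS4, 0.13 for SMC2 and 0.09 for SMC4. The median over all genes was 0.11. The swing of YCG1 was several times this spread. The highest values of a gene were closer together than that: SMC2 at 20, 30 and 40 min lay between 0.13 and 0.25, BRN1 at 40 and 50 min at 0.67 and 0.60, and SMC4 at 20 and 90 min at 0.46 and 0.42, so their order is not resolved.

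The fitted peaks of the subunits ran from 27.9 to 40.3 min. SMC4, YCS4 and SMC2 had fitted peaks between 27.9 and 30.9 min, near that of the histone gene HTA1 at 30.7 ± 1.0 min, which marks S phase. YCG1 and BRN1 peaked at 38.7 and 40.3 min, between HTA1 and the mitotic cyclin gene CLB2 at 45.2 ± 1.7 min. The G1 cyclin gene CLN2 peaked at 19.5 ± 1.2 min and SIC1, for the inhibitor of S phase cyclin kinase, at 10.1 ± 1.7 min, modulo 60. The SIC1 values were high at 60 and 70 min, at 0.76 and 0.69, and not at 10 min, at -0.64.

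Each of the 10 pairs of subunits was tested by subtracting the profile of 1 member from every gene on each array and repeating the fit over the whole table. Each pair was tested in 1 direction, and YCG1 was never the profile subtracted. The limma errors and adjusted p values of a pair can depend on which member is subtracted. A pair is called where its difference oscillates at an adjusted p under 0.05, which responds to size as well as to timing. Of the 10 pairs 7 were called, and 5 with an estimated correlation, where 39.3% of genes differed over the 4 fits with SMC2, SMC4, BRN1 or YCS4 subtracted. For reference, the share of all genes that differed in this way was 55.5% from SMC2, 57.9% from SMC4, 73.7% from BRN1 and 80.2% from YCS4, so a call in itself is common. An ordinary F test without limma's shared variance, used because every row then carries the same subtracted profile, called the same number, 7 of 10, beside 37.5%, 45.7%, 63.5% and 67.3% of genes.

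The pairs are grouped below by the fitted peaks of the subunits, which come from these same arrays. The split of calls is thus a description and not a test of the grouping. None of the 3 pairs among SMC2, SMC4 and YCS4 was called. The difference SMC4 minus SMC2 had a swing of 0.12 ± 0.14 (SE, 13 arrays, limma adjusted p = 0.71), YCS4 minus SMC2 of 0.14 ± 0.13 (adjusted p = 0.57) and YCS4 minus SMC4 of 0.22 ± 0.11 (adjusted p = 0.20). These errors leave room for differences larger than the swing of SMC4 itself, so the test does not show that the 3 genes move alike. Over the 13 arrays the 3 pairs correlated at r = 0.79 to 0.80, values that share the arrays and their normalization.

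Each of the 6 pairs that join YCG1 or BRN1 with SMC2, SMC4 or YCS4 was called. The largest difference was YCG1 minus SMC4, with a swing of 0.76 ± 0.12 (SE, 13 arrays, limma adjusted p = 7.4e-04). YCG1 minus SMC2 had 0.65 ± 0.15 (adjusted p = 0.0029) and YCG1 minus YCS4, the HEAT-repeat pair, 0.65 ± 0.15 (adjusted p = 0.0041). BRN1 minus SMC4 had 0.51 ± 0.12 (adjusted p = 0.0089), and YCS4 minus BRN1 had 0.50 ± 0.12 (adjusted p = 0.0053), with a peak at 20.1 min, before the peak of either gene. BRN1 minus SMC2 had 0.43 ± 0.14 (adjusted p = 0.037) and was lost with an estimated correlation (adjusted p = 0.17). It was also lost without the 10, 20, 50, 60, 70, 80 or 120 min array, with an adjusted p up to 0.21.

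YCG1 and BRN1 had the closest profiles of any pair, at r = 0.90 over the 13 arrays, with fitted peaks 1.66 ± 2.13 min apart. The difference YCG1 minus BRN1 had a swing of 0.36 ± 0.12 (SE, 13 arrays, limma adjusted p = 0.031), and its peak, at 36.4 min, lay near the peaks of both genes. That call was lost with an estimated correlation (adjusted p = 0.12) and without the 10, 30, 40, 70 or 100 min array (adjusted p up to 0.11).

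To give size less weight, each gene was also scaled to unit standard deviation over the arrays, a choice made after the values were seen. That standard deviation holds scatter as well as oscillation, so the scaled test does not read timing alone. Of the 6 pairs across the early and late peaks 3 were then called: BRN1 minus SMC4 (adjusted p = 0.022), YCS4 minus BRN1 (adjusted p = 0.032) and YCG1 minus SMC4 (adjusted p = 0.033). YCG1 minus YCS4 (adjusted p = 0.057), BRN1 minus SMC2 (adjusted p = 0.12) and YCG1 minus SMC2 (adjusted p = 0.18) were not. YCG1 minus BRN1 had an adjusted p = 0.80 on this scale. Over the 4 scaled fits, with SMC2, SMC4, BRN1 or YCS4 subtracted, 57.5% of genes differed. Without the 0 min array as well, 2 scaled pairs were called, BRN1 minus SMC4 (adjusted p = 0.026) and YCS4 minus BRN1 (adjusted p = 0.023), beside 51.5% of genes, and YCG1 minus SMC4 had an adjusted p = 0.053. The fitted peak of BRN1 minus that of SMC4 was 12.4 ± 3.3 min, and BRN1 minus SMC2 was 9.45 ± 3.36 min, with the errors of the 2 peaks combined as if independent. For YCG1 it was 10.7 ± 3.0 min minus SMC4, 7.79 ± 3.00 min minus SMC2 and 8.43 ± 2.69 min minus YCS4, and for YCS4 minus BRN1 it was -10.1 ± 3.1 min. These peak differences were not tested on their own, and in the scaled test 3 of the 6 pairs were not called.

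**Figure D2:**
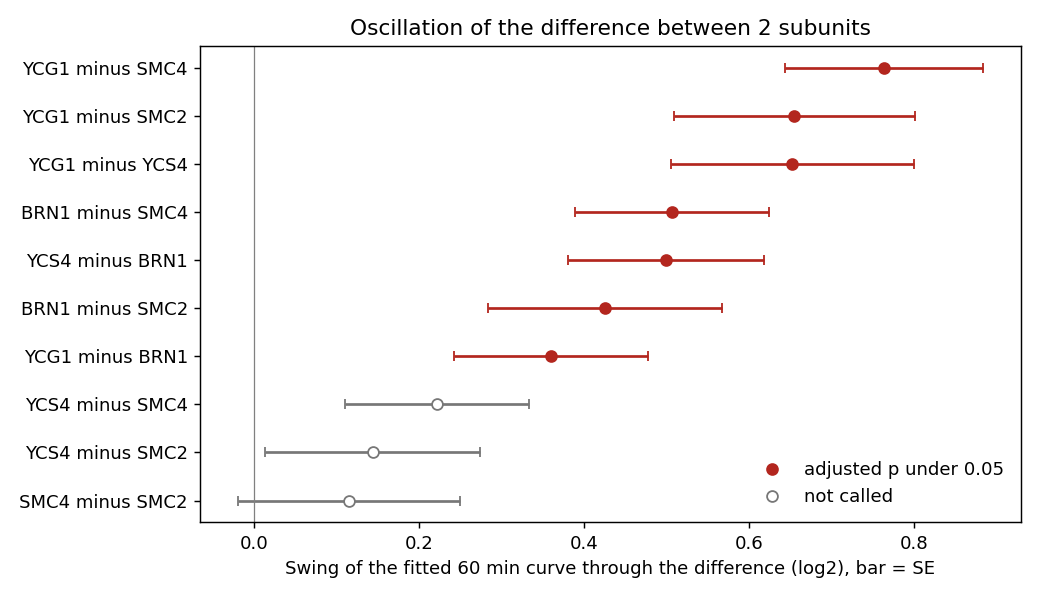
Swing of the 60 min curve fitted to the difference between 2 condensin transcripts (horizontal axis, log2, bars are standard errors) for the 10 pairs. Filled points passed an adjusted p of 0.05; the 3 open points, all among SMC2, SMC4 and YCS4, lie between 0.12 and 0.22.

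The sampling covers a second passage through the cycle. Fitted separately, YCG1 had a swing of 0.75 in the second cycle (70 to 120 min), against 0.90 in the first (10 to 60 min). SMC4 had 0.25 in the second and 0.30 in the first, and BRN1 0.36 in the second and 0.63 in the first. YCS4 had 0.21 in the second and 0.58 in the first, and SMC2 0.18 in the second and 0.53 in the first. The second swing was the smaller for all 5 subunits, as it was for 72.7% of all genes. For SMC4 this order turned without the 20, 60 or 100 min array, with a swing up to 0.04 larger in the second cycle.

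No subunit was called different between the cycles, beside 0.554% of genes (limma, interaction of the curve with the cycle). The smallest values were those of BRN1 (unadjusted p = 0.044, adjusted p = 0.31), YCS4 (unadjusted p = 0.059, adjusted p = 0.35) and SMC2 (unadjusted p = 0.060, adjusted p = 0.35). SMC4 and YCG1 had adjusted p = 0.51 and adjusted p = 0.50. BRN1 alone had an unadjusted p under 0.05, as did 932 of 6135 genes. The fitted peak lay at 40.7 min in the second cycle for YCG1, modulo 60, against 37.7 min in the first. It lay at 45.2 min in the second against 39.5 min in the first for BRN1, and at 35.4 min against 29.9 min for YCS4. For SMC2 it was 37.2 min in the second and 29.0 min in the first, and for SMC4 33.6 min in the second and 23.9 min in the first. The shift was later for all 5, by 3.04 to 9.66 min, and later for 58.7% of all genes; no shift was tested on its own.

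**Figure D3:**
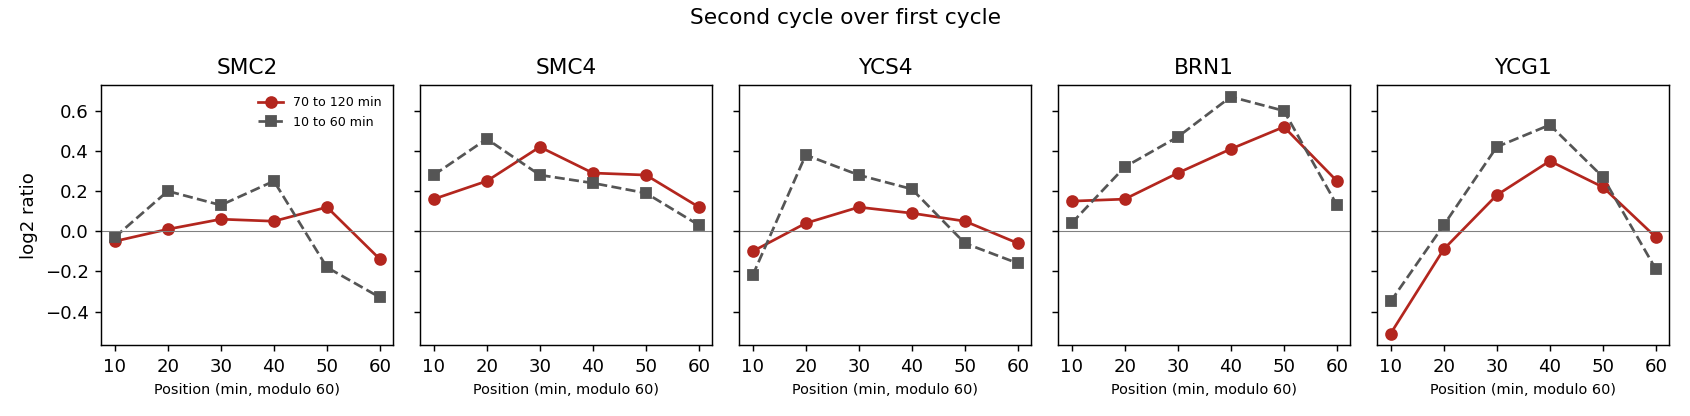
Log2 ratio of each subunit (vertical axis) at 70 to 120 min (red circles) and at 10 to 60 min (grey squares), drawn at the same position of a 60 min cycle (horizontal axis, min). YCG1 is highest at the 40 min position in both cycles, at 0.35 and 0.53, while YCS4 moves between -0.10 and 0.12 in the second cycle and between -0.22 and 0.38 in the first.

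The arrested cells at 0 min can be set beside the 60 and 120 min arrays, which fall at the same position 1 and 2 periods later. This comparison has 1 array at 0 min and no test. YCS4 stood at -0.55 at 0 min, against a mean of -0.11 at 60 and 120 min, a difference of -0.44 where a single array had a standard deviation of 0.13. YCG1 stood at -0.34 at 0 min against -0.11 later, and BRN1 at 0 against 0.19. SMC4 stood at -0.03 at 0 min, against a later mean of 0.075. SMC2, at -0.23 at 0 min, differed from its later mean of -0.235 by less than the spread of an array. YCS4 was thus low in arrest relative to its own mean at 60 and 120 min by more than the other members. These times are not always the troughs: YCG1 was lower at 70 min, at -0.51, than in arrest.

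Over the 12 arrays from 10 to 120 min, BRN1 averaged 0.33 ± 0.05 (SE, 12 arrays) above its level in the asynchronous culture (limma, adjusted p = 9.8e-05) and passed the rule of an adjusted p under 0.05 and a mean beyond 0.25. This rule called 17.8% of genes, and 8.87% as higher. SMC4 averaged 0.25 ± 0.03 (SE, 12 arrays, limma adjusted p = 2.5e-05), exactly at the size threshold, and was called with each array centred on its median (0.26) or after quantile normalization (0.26). It was also called without the 40, 50, 60, 70 or 120 min array, at up to 0.27. YCG1 averaged 0.07 ± 0.08 (limma adjusted p = 0.49), YCS4 0.05 ± 0.05 (adjusted p = 0.42) and SMC2 0.01 ± 0.05 (adjusted p = 0.89). None of these 3 was called, and single arrays moved their means: YCG1 lay between 0.027 without the 40 min array and 0.12 without the 70 min array, and YCS4 between 0.017 without the 20 min array and 0.072 without the 10 min array. The culture in Cy3 is a single RNA whose own spread is not in these errors. This test fits a flat mean, so its errors hold the oscillation of each gene. It treats the 12 serial arrays of 1 culture as independent and was not run with an estimated correlation. Its adjusted p values may therefore be too small.

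Condensin has relatives among the SMC complexes, of which cohesin holds sister chromatids together and the Smc5/6 complex acts in DNA repair and replication. All 4 cohesin core genes were periodic, beside 30.1% of all genes, with swings from 1.23 for SMC1 to 2.71 for the kleisin MCD1 and peaks between 18.9 and 20.4 min. The condensin swings of 0.29 to 0.84 were smaller than any of these, and their peaks of 27.9 to 40.3 min were all later. The kleisin pair, BRN1 minus MCD1, had a difference of swing 3.05 ± 0.47 (SE, 13 arrays, limma adjusted p = 7.0e-09, ordinary F test adjusted p = 0.0013), more than the swing of either gene alone. Among the ATPases, SMC2 minus SMC3 had 1.53 ± 0.24 (limma adjusted p = 3.1e-09, ordinary F test adjusted p = 2.4e-04) and SMC4 minus SMC1 1.07 ± 0.21 (limma adjusted p = 3.1e-06, ordinary F test adjusted p = 5.5e-04). The HEAT-repeat pair, YCG1 minus IRR1, had 2.17 ± 0.30 (limma adjusted p = 1.8e-10, ordinary F test adjusted p = 0.0011). Nearly every gene differed from these cohesin genes in this way: by limma 99.6% from MCD1, 99.4% from SMC3, 99.2% from SMC1 and 99.3% from IRR1. By the ordinary F test it was 99.6% from MCD1, 99.2% from SMC3, 98.8% from SMC1 and 99.2% from IRR1. Scaled to unit standard deviation, the 4 pairs had adjusted p from 2.1e-04 to 0.015.

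BRN1 and MCD1 illustrate the offset between the kleisins. From 10 to 50 min the values of MCD1 were 1.21, 1.30, 0.01, -1.11 and -1.51. BRN1 was lowest of these times at 10 min and highest at 40 min. Over the 13 arrays their values correlated at r = -0.30, and YCG1 and IRR1 at r = -0.18, while SMC4 and SMC1 correlated at r = 0.62 and SMC2 and SMC3 at r = 0.48.

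In the Smc5/6 complex 4 of 8 genes were periodic, beside the same 30.1% of all genes, and 2 with an estimated correlation, beside 14.0%. SMC6 had a swing of 1.17 ± 0.16 with a peak at 23.1 min, and the kleisin NSE4 0.80 ± 0.13 with a peak at 15.8 min. SMC5 had 0.62 ± 0.14 at 17.1 min (adjusted p = 0.054 with an estimated correlation) and KRE29 0.24 ± 0.07 at 57.3 min (adjusted p = 0.21 with an estimated correlation). NSE1, MMS21, NSE3 and NSE5 were not called, with swings from 0.03 to 0.19. The median swing of the 8 was 0.21.

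**Figure D4:**
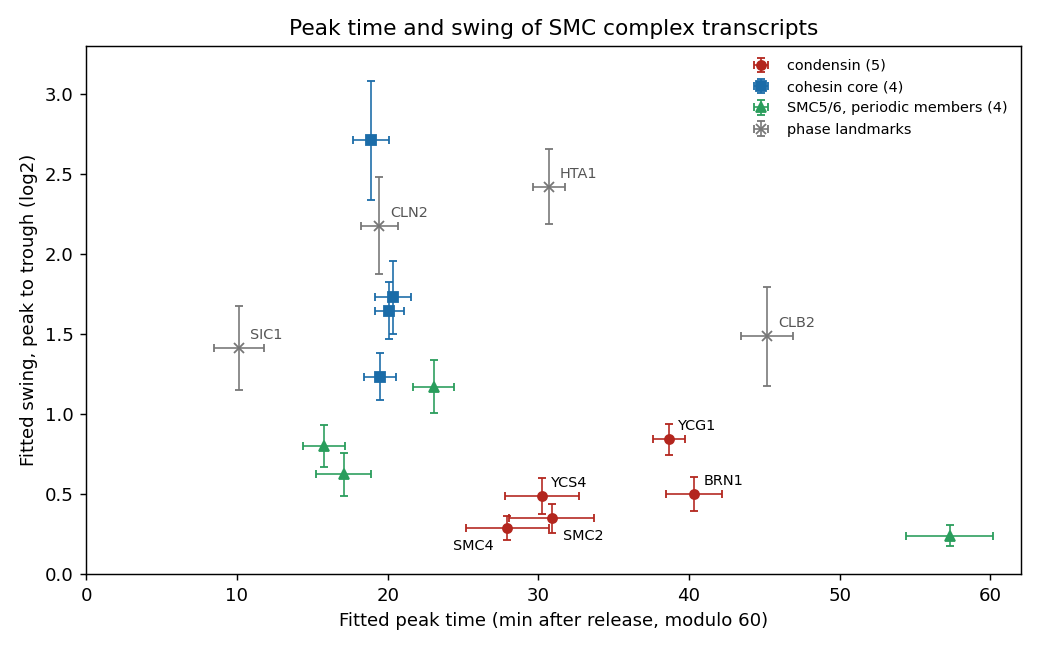
Fitted peak time (horizontal axis, min after release, modulo 60) against fitted swing (vertical axis, log2) with standard errors, for condensin, the cohesin core, the periodic Smc5/6 genes and 4 landmark genes. The condensin points lie at the lower right of the cohesin points, with peaks between 27.9 and 40.3 min and swings between 0.29 and 0.84.

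Condensin is switched by kinases that phosphorylate its subunits and by the phosphatase Cdc14, which is needed for it to reach the ribosomal DNA in anaphase. The list read here also holds the cyclin gene CLB2 and SLI15 and BIR1, for partners of the Aurora kinase. Of its 11 genes, 6 were periodic, beside 30.1% of all genes, and 4 with an estimated correlation, beside 14.0%. The polo kinase gene CDC5 swung by 1.52 ± 0.27 and peaked at 44.9 ± 1.5 min, and CLB2 1.49 ± 0.31 at 45.2 min, both later than BRN1 and YCG1. CDC14 had 0.44 ± 0.08 at 41.1 ± 1.6 min, close to BRN1. IPL1, for Aurora kinase, had 0.45 ± 0.11 at 23.2 min, while its partner BIR1 had 0.29 ± 0.07 at 40.9 min (adjusted p = 0.12 with an estimated correlation) and SLI15, at 0.44 ± 0.13, was not called (adjusted p = 0.061). The kinase gene CDC28 (0.15 ± 0.08, adjusted p = 0.28) and the casein kinase 2 genes CKA1, CKA2 and CKB1, with swings from 0.06 to 0.21, were not called. CKB2 passed with 0.28 ± 0.07, though not with an estimated correlation (adjusted p = 0.098).

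Of 14 genes for factors that recruit or load condensin, 6 were periodic, a share not far above the 30.1% of all genes, and 5 with an estimated correlation, beside 14.0%. SGO1, the shugoshin that brings condensin to the region around the centromere, had a swing of 1.07 ± 0.12 peaking at 33.1 ± 1.2 min, and the kinase gene BUB1, which acts upstream of it, 0.82 ± 0.12 at 26.2 ± 1.6 min. TOF2 and CSM1, each tied to the ribosomal DNA, had 0.92 ± 0.10 at 35.5 min and 0.59 ± 0.09 at 40.3 min. TFC8 had 0.53 ± 0.09 at 20.2 min and TFC1 0.48 ± 0.13 at 40.5 min (adjusted p = 0.081 with an estimated correlation). The other 4 TFIIIC genes (TFC3, TFC4, TFC6 and TFC7), the loader genes SCC2 and SCC4, FOB1 and LRS4 were not called. SCC2 came near, with a swing of 0.61 ± 0.19 (limma's moderated F test, adjusted p = 0.063), while SCC4 had 0.07 ± 0.10. Among the topoisomerase genes, TOP2, whose enzyme decatenates the chromosomes that condensin compacts, had a swing of 1.34 ± 0.17 with a peak at 27.9 ± 1.3 min, the fitted peak of SMC4. TOP1 peaked at 14.8 min and TOP3 at 19.4 min; with an estimated correlation TOP1 had an adjusted p = 0.063 and TOP3 an adjusted p = 0.079. All 8 core histone genes were periodic, beside 30.1% of all genes, with peaks from 29.3 to 31.0 min, within 2 min of the fitted peaks of YCS4 and SMC2, and swings from 1.99 to 2.45; their near-identical copies may share signal.

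Genes with profiles most like condensin were ranked by Pearson's r over the 13 arrays among 6121 genes with complete data. Ratios on the same arrays share dye and normalization effects, and r is a description here. Nearest to the mean of the 5 centred profiles were RAP1, which binds telomeres and many promoters (r = 0.98), VID22 (r = 0.97), the beta-tubulin gene TUB2 (r = 0.96) and the microtubule polymerase gene STU2 (r = 0.95). SIM1, CCC2, ALG5, the helicase gene SRS2 and the reading frames YDR271C and YNL095C followed, at r = 0.93 to 0.95. Their fitted peaks ran from 31.0 to 37.1 min, between the early and the late peaks of the subunits. That position follows from choosing genes by likeness to the mean of early and late profiles, and is not a separate result.

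By subunit, the nearest profiles to YCG1 were the RecQ helicase gene SGS1, the septin gene CDC11 and GAS3, at r = 0.98, 0.98 and 0.97. Those nearest to BRN1 were UBC9, for the SUMO-conjugating enzyme (r = 0.96), the dynein gene DYN1 (r = 0.94) and YBL070C (r = 0.94). YCS4 was closest to GNT1 (r = 0.98), the linker histone gene HHO1 (r = 0.97) and VRG4 (r = 0.97). SMC4 was closest to the B-type cyclin gene CLB3 (r = 0.93), LPX2 (r = 0.93) and TOP2 (r = 0.92), and SMC2 to PMT4 (r = 0.93), the kinetochore gene CBF2 (r = 0.90) and YHR173C (r = 0.89).

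The subunits were not each other's nearest neighbours by this measure. YCG1 ranked 16 of 6120 genes for likeness to BRN1, and BRN1 ranked 55 for likeness to YCG1. YCS4 and SMC4 ranked 54 and 56 for likeness to SMC2. At the other end SMC4 ranked 1749 for likeness to BRN1 (r = 0.38) and 1485 for likeness to YCG1 (r = 0.44). Genes next to a subunit on the chromosome were read as well, in case a probe took signal from a neighbour, and none of the neighbouring genes in RefSeq's R64 annotation overlapped a subunit. YSP2, beside YCG1, was periodic (swing 0.33, peak 41.3 min, adjusted p = 0.012) and correlated with YCG1 at r = 0.81. MET10, beside SMC2, was periodic with 0.58 at 40.5 min (adjusted p = 0.037, r = 0.53). The other 7 measured neighbours, among them BNA4 and MRX3 beside BRN1, were not called periodic.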

How the data were processed

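Per the labels, RNA of 13 time points (Cy5) and of an asynchronous culture (Cy3) was hybridised to two-colour arrays. The authors deposited 1 table of log2 ratios, as taken here; scanner, background correction, normalization and log base: not given in the sources used here. Array means lay within 0.0026 of 0 and medians between -0.03 and 0.01, and values were used as deposited. Of 6295 rows, 108 were empty and 20 had no readable name; 5768 matched RefSeq's R64 gene table by locus tag, 49 by synonym and 458 not at all, and rows of 27 genes were averaged. Between 6178 and 6186 rows were measured per array.

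Genes on at least 10 arrays (6137) were fitted with limma 3.58.1 in R 4.3.3: intercept, linear time, and cosine and sine of 60 min, the period implied by 2 cycles in 120 min. F tests were adjusted by Benjamini-Hochberg over all genes, with calls at 0.05. Pairs were tested by subtracting a profile from all genes. An ordinary F test, scaling to unit standard deviation and the grouping of pairs by fitted peak were added after the values were seen. Cycles were compared over 12 arrays from 10 to 120 min by the interaction of the curve with the cycle, and mean levels over the same arrays against 0. The estimated correlation between neighbouring arrays was first-order and was used to whiten data and design for the 6121 complete genes. The scripts were tested on simulated data. Subunits and lists were chosen with earlier results of these data known; named genes were the 5 subunits, list members, 4 landmarks, the 10 genes most like the subunits' mean and the 3 most like each. Promoter motifs were not analysed here. Figures used matplotlib 3.10.9 in Python 3.11.15.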

Additional observations from a re-analysis of the deposited data

How the results depend on the processing

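No paired analysis was possible because no time point has a second array to pair by replicate number; arrays 60 min apart are different times of 1 culture, and were set side by side for the spread of an array and between cycles. YCG1 was called periodic under each alternative run. At a period of 55 min 1 of 5 subunits was called, with adjusted p = 0.12 for SMC2, 0.17 for SMC4, 0.12 for BRN1 and 0.061 for YCS4. At 65 min, without the linear term, median centred, quantile normalized and with rows apart all 5 were called. At 65 min limma's moderated F test gave adjusted p = 0.012 for SMC2, 0.010 for SMC4, 0.0016 for BRN1, 0.011 for YCS4 and 7.1e-05 for YCG1. Each was smaller than at 60 min. The peak times above and their errors take the period as 60 min. With an estimated correlation 3 subunits were called, with adjusted p = 0.12 for SMC2 and 0.11 for SMC4. In that run the Smc5/6 list had 2 periodic members and the topoisomerase list 1, beside 14.0% of all genes. Leaving out single arrays gave adjusted p from 0.016 to 0.070 for SMC2, from 0.025 to 0.080 for SMC4 and from 0.0027 to 0.054 for BRN1, and 2 to 5 subunits called. Over all genes 950 were periodic at 55 min, 859 with an estimated correlation and 1187 without the 40 min array, against 1847. Of 10 pairs of subunits 3 were called on the unit standard deviation scale, 2 of them without the 0 min array, and 5 with an estimated correlation. No subunit was called different between cycles under any alternative run. With an estimated correlation, 0.59 in this fit, 0 genes of the whole table were called, so that run says nothing about the subunits in particular. The adjusted p of SMC4 lay between 0.32 and 0.75 over single arrays left out, and the sign of its swing difference turned in 3 of 12. The mean level of SMC2 was -0.011 with all 13 arrays and lay between -0.015 and 0.038 over single arrays left out. That of SMC4 was 0.255 median centred and 0.257 quantile normalized, and lay between 0.23 and 0.27 over single arrays left out. The causes were not tested. Signal over background was not known for any spot.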
